A study of Mus musculus with 29 samples.

Results

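The clustered protocadherins are a family of adhesion molecules of neurons, and their RNA was followed here in embryonic mouse cortex with and without the chromatin remodelling subunits BAF155 and BAF170. Members were chosen by symbol, as all genes in the deposited count tables named Pcdha, Pcdhac, Pcdhb, Pcdhga, Pcdhgb or Pcdhgc followed by a number. No measured value enters that rule, but the family was taken up with results of these libraries known, so its counts and p-values describe the libraries and are no independent support. The rule gave 58 of the 48709 genes in the table of treated embryos, with 14 in the alpha, 22 in the beta and 22 in the gamma cluster. The table of untreated embryos held 24 of them among its 38355 genes, all 22 beta members and 1 entry each of alpha and gamma.

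Each clustered protocadherin is a cadherin-like membrane protein, and the extracellular part of every member is encoded by a single large variable exon with its own promoter. In the alpha and gamma clusters that exon is spliced to constant exons shared by the whole cluster, whereas beta genes have no constant exons. Single neurons use different subsets of the alternate promoters, with CTCF and cohesin joining a chosen promoter to a distant enhancer. The products bind their own kind on neighbouring membranes and act in self-recognition of dendrites and axons, and in the survival of neurons. The C-type members Pcdhac1, Pcdhac2, Pcdhgc3, Pcdhgc4 and Pcdhgc5 have promoters that are regulated apart from the alternates. The genes lie side by side on chromosome 18 (mm10), the alpha cluster at 36930184 to 37187661, the beta cluster at 37264938 to 37524479 and the gamma cluster at 37661793 to 37841873, all on the same strand.

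All embryos were C57BL/6J at E17.5. In the treated experiment, bulk cortex RNA was sequenced from wild type embryos given vehicle (WT vehicle, n = 4), from BAF dcKO_hGFAP-Cre embryos given vehicle (dcKO vehicle, n = 4), and from BAF dcKO_hGFAP-Cre embryos given a Wnt inhibitor (dcKO Wnt inhibitor, n = 4). The inhibitor was ICG-001, injected into the pregnant mother, so vehicle and inhibitor reached whole embryos. In the untreated experiment, libraries carried the letters C (n = 4) and M (n = 3) and the H3K27me3 chromatin libraries C (n = 4) and K (n = 4). GEO gives the genotype BAF dcKO_hGFAP-Cre for all of these, so the letters are used as group names, although in the study C stands for controls, which were heterozygous for both floxed genes and carried Cre, and M and K stand for dcKO. hGFAP-Cre recombines in cortical progenitors, first in the medial pallium and later laterally, so cells without recombination remained in the tissue, and no inhibitor was given to WT embryos.

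Library totals ran from 11946658 to 28391046 counts in the untreated and from 12514443 to 26600594 in the treated experiment. Smarcc1 and Smarcc2, the genes of BAF155 and BAF170, read 245 to 299 and 664 to 834 CPM (counts per 1000000, scaled by TMM) in WT vehicle. They read 133 to 138 and 425 to 439 CPM in dcKO vehicle replicates 1, 3 and 4, but 242 and 692 CPM in the library labelled dcKO vehicle replicate 2. In the inhibitor group Smarcc1 read 214, 252, 140 and 173 CPM in replicates 1 to 4. Smarcc2 read 644, 695, 416 and 586 CPM in the same libraries. The library labelled untreated M replicate 2 read 245 CPM of Smarcc1 and 670 of Smarcc2, against 128 and 135 CPM of Smarcc1 in the other M libraries and 247 to 269 in untreated C. Neither gene passed by edgeR between M and C or between dcKO vehicle and WT vehicle (log2 difference of Smarcc1 -0.61 and -0.71, adjusted p = 0.251 and 0.289), and both were called lower once the library labelled replicate 2 was left out. Results below are therefore also given without untreated M replicate 2, or without the 3 treated libraries in which both genes lay nearer to WT (dcKO vehicle replicate 2 and inhibitor replicates 1 and 2). Each of the 7 untreated libraries correlated best, of 12 treated libraries, with the vehicle library of the like group and number. The r, from 0.20 to 0.75 over 16156 genes, was taken on deviations of log CPM from the mean of each group. The 2 experiments may therefore share animals and are not treated as independent. The labels do not say whether replicates were separate embryos, and p-values measure only the spread between these libraries.

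The tables count different things under the same name. Among the treated libraries, 4 further genes at the locus without any exonic base of their own held 0 reads. The values of alpha and gamma members are therefore taken to come from bases that no other gene shares. How reads over several genes were handled is not given. In the untreated table the only alpha entry, ENSMUSG00000007440, read 253 to 333 CPM, more than the whole alpha cluster in any treated library (35.8 to 108 CPM), and the same identifier read 1.91 to 6.40 CPM there. The only gamma entry of that table, named Pcdhgc4, read 903 to 1034 CPM, again above the summed gamma cluster of the treated table (210 to 464 CPM). These untreated entries are not read as single genes. Their values in M and C differed by -0.06 and 0.01 on the log2 scale. ENSMUSG00000007440 carries the symbol Pcdha11 in GENCODE M21, but the nearest RefSeq start is that of Pcdha10, so it is named by its identifier.

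Among alpha and gamma genes the C-type members Pcdhgc3, Pcdhgc4 and Pcdhac2 stood high in E17.5 cortex. Per kilobase of unshared exon, the mean level over the 12 treated libraries was highest for Pcdhgc3, whose cytoplasmic part can bind the Wnt pathway scaffold Axin1, at 22.6 CPM per kb. Pcdhgc4, a gamma member required for the survival of cortical interneurons, followed with 13.2 CPM per kb. Pcdhgc3 alone took 20.2% and Pcdhgc4 12.2% of all gamma reads. Pcdhac2, which serves the tiling of serotonergic axons, led the alpha cluster with 8.03 CPM per kb and 28.2% of its reads. The other C-type members were low, with Pcdhac1 at 1.04 and Pcdhgc5 at 1.39 CPM per kb.

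The alternates spread over a wide range within each cluster. In alpha, Pcdha9 at 4.70, Pcdha5 at 3.41 and Pcdha12 at 3.04 CPM per kb were among the higher alternates, and Pcdha8 was lowest of those tested at 0.249. In gamma the highest alternates over the 12 libraries were Pcdhgb6 at 9.95 and Pcdhga3 at 9.32 CPM per kb, and the lowest tested was Pcdhgb4 at 2.08. The order of close neighbours differed between groups. Pcdhgb6 and Pcdhga3 had group means of 11.2 and 9.94 CPM per kb in WT vehicle but 10.8 and 10.9 in dcKO vehicle, and Pcdha12 (3.93) lay above Pcdha5 (3.49) in WT vehicle only. The beta genes ran from Pcdhb7 at 4.998, Pcdhb20 at 4.61 and Pcdhb17 at 4.29 CPM per kb down to Pcdhb12 at 0.552, and Pcdhb22 stood at 3.08. The filter on low counts removed 5 of the 58 members. These were Pcdha4 (28 reads over 12 libraries), ENSMUSG00000102206 (22 reads), Pcdhgb8 (24 reads), Pcdhb1 (6 reads) and Pcdhga10 (0 reads). Of Pcdha4 only 494 of 5768 exonic bases are unshared, and its 28 reads came to 0.237 CPM per kb of these. The 53 that passed were 12 alpha, 21 beta and 20 gamma genes.

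**Figure D1:**
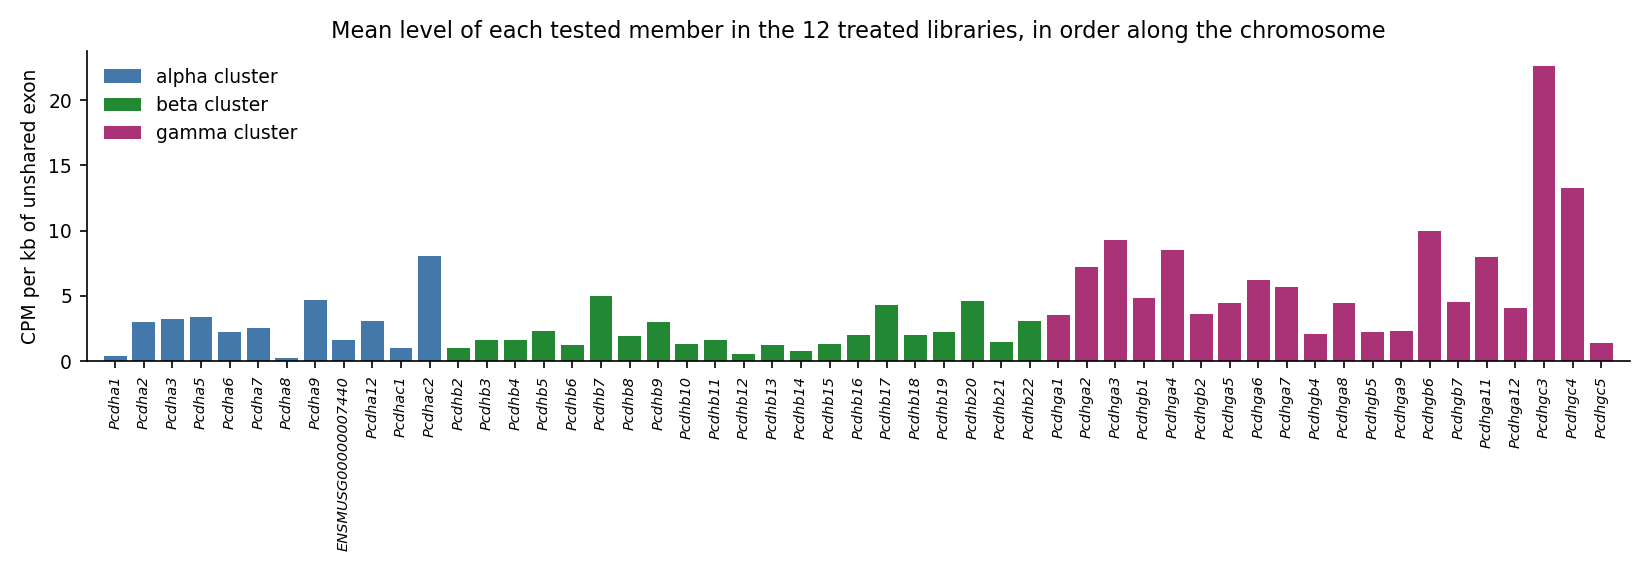
Mean level of the 53 tested members (CPM per kb of exon shared with no other gene on the same strand, linear axis) over the 12 treated libraries, ordered along the chromosome. Pcdhgc3 at 22.6 and Pcdhgc4 at 13.2 exceed every other bar, and the beta genes stay at or below 4.998.

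The first question was whether loss of BAF155 and BAF170 alone went with other protocadherin levels. In vehicle-treated embryos the cluster sums of dcKO and WT lay close together. The alpha members summed to 97.7 ± 9.27 CPM in dcKO vehicle and 98.4 ± 13.4 in WT vehicle (SD, n = 4 each). The beta sums were 196 ± 15.8 and 194 ± 26.2 CPM, and the gamma sums 429 ± 32.3 and 407 ± 43.0 CPM. These differences were smaller than the spread between libraries of a group. In bulk tissue fewer cells of a type and less RNA per cell cannot be told apart, here and in all comparisons that follow. No member passed an adjusted p of 0.05 in the quasi-likelihood test of edgeR, adjusted by Benjamini-Hochberg, or in DESeq2, where 0.00611% and 0.623% of all genes were called. At an unadjusted p under 0.05, 2 of 53 members were higher and 0 lower, against 4.14% and 5.33% of all genes. The median log2 difference was 0.09 in each of the 3 clusters, against -0.00 over all genes.

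Pcdhga7 had the smallest p of this comparison. It read 16.4, 18.6, 15.5 and 14.99 CPM in WT vehicle replicates 1 to 4 and 25.6, 20.3, 27.2 and 23.1 CPM in dcKO vehicle. All dcKO vehicle libraries lay above all WT vehicle libraries, and Pcdhga7 was the only member whose groups did not overlap (3.08% of all genes were higher and 2.58% lower without overlap). Its log2 difference was 0.55 (SE 0.16, edgeR adjusted p = 0.289). Pcdhb4 differed by 0.42 (edgeR adjusted p = 0.522) and Pcdhga12 by 0.36 (edgeR adjusted p = 0.561), and neither passed. Without dcKO vehicle replicate 2 there were again 0 members called, while 3.4% of all genes were.

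The untreated libraries gave the beta cluster alone. Its sum was 196 ± 12.1 CPM in C (n = 4) and 204 ± 11.2 CPM in M (n = 3). By edgeR and by DESeq2 0 of 23 members passed (0.00634% and 3.37% of all genes), and 3 had an unadjusted p under 0.05, against 16% of all genes. These 23 were the beta genes other than Pcdhb1 and the alpha and gamma entries that are not read as single genes. In 0 members were the groups without overlap (6.96% of all genes were higher and 6.21% lower without overlap). Pcdhb4 read 5.42, 4.92, 6.72 and 7.64 CPM in C and 7.89, 9.51 and 7.39 in M replicates 2 to 4. Its groups overlapped, and the log2 difference was 0.42 (edgeR adjusted p = 0.281). Pcdhb9 read 7.44, 7.45, 8.50 and 8.36 CPM in C and 7.13, 12.4 and 11.3 in M, where the low value is that of the library labelled M replicate 2. Its log2 difference was 0.39 (edgeR adjusted p = 0.310) with that library and 0.57 (edgeR adjusted p = 0.0104) without it, when 5.57% of all genes were called higher. In that setting 5 of 7 GABAergic interneuron markers were also called higher in M. Of 11 neuron markers 5 were called lower, where 6.88% of all genes were. Progenitor markers were split, with 4 of 11 called higher and 3 lower. Called higher as well were 2 of 7 microglia markers and 1 of 5 oligodendrocyte precursor markers. The part of these cell types in the Pcdhb9 value was not tested. Pcdhb19 was lower by -0.22 (edgeR adjusted p = 0.3). The dcKO effect itself was compared between the experiments by an interaction term in edgeR. This fit did not pair like-numbered libraries, which may come from the same animals, so a lack of difference is not evidence of replication. The alpha and gamma entries in it count different things in each experiment. None of the 23 shared entries passed, 0 had an unadjusted p under 0.05 (0.501% of all genes did), and the smallest p belonged to Pcdhb20 (-0.19), Pcdhb22 (-0.14) and Pcdhb12 (0.26 on the log2 scale), all with an adjusted p of 0.9999.

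The inhibitor group held the lowest alpha and gamma values of the treated experiment, while most beta genes lay nearer to the other groups. Summed over members, the alpha cluster stood at 35.8, 89.2, 52.6 and 71.0 CPM in inhibitor replicates 1 to 4, against 103, 84.7, 106 and 98.0 CPM in dcKO vehicle. Inhibitor replicates 1, 3 and 4 lay below every vehicle library, and replicate 2 lay within the vehicle range. The gamma cluster gave 210, 374, 272 and 335 CPM in the inhibitor libraries and 464, 389, 445 and 421 CPM in dcKO vehicle, and these groups did not overlap. The beta cluster gave 130, 182, 195 and 176 CPM against 185, 182, 203 and 215 CPM, and overlapped. The 130 CPM of inhibitor replicate 1 was also the lowest beta sum of the treated experiment. As ratios of group means the sums differed by -36.4% in alpha, -13.1% in beta and -30.7% in gamma.

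**Figure D2:**
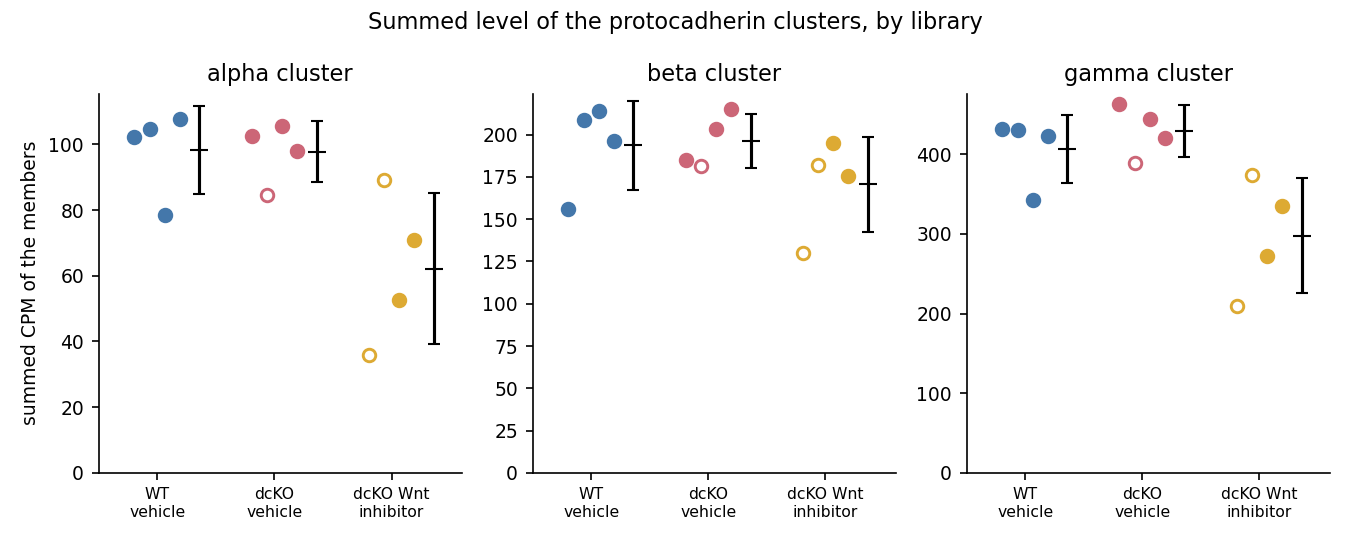
Summed CPM of all members of each cluster in every treated library (points) with the group mean and SD (black). Open points are the 3 libraries labelled dcKO in which Smarcc1 and Smarcc2 lay nearer to WT. Alpha and gamma points of the inhibitor group reach down to 35.8 and 210 CPM, while its beta points range from 130 to 195 CPM.

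Gene by gene, 50 of 53 members had a negative and 3 a positive log2 difference between dcKO Wnt inhibitor and dcKO vehicle, against 48.2% negative over all genes. The median was -0.65 over the 12 alpha, -0.19 over the 21 beta and -0.60 over the 20 gamma members, beside 0.01 over all 16372 genes. None passed an adjusted p of 0.05 by edgeR, where 0.055% of all genes did, and 11 passed by DESeq2, all lower, where 0.909% of all genes were called lower. At an unadjusted p under 0.05, 31 members were lower and 0 higher, against 8.0% and 7.85% of all genes. The 31 comprised 9 alpha, 4 beta and 18 gamma members. In 12 members every inhibitor library lay below every dcKO vehicle library, against 4.03% of all genes. These were Pcdha6 and Pcdha9 of alpha and Pcdhga1, Pcdhga3, Pcdhga4, Pcdhga5, Pcdhga7, Pcdhga11, Pcdhga12, Pcdhgb1, Pcdhgb2 and Pcdhgb7 of gamma.

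**Figure D3:**
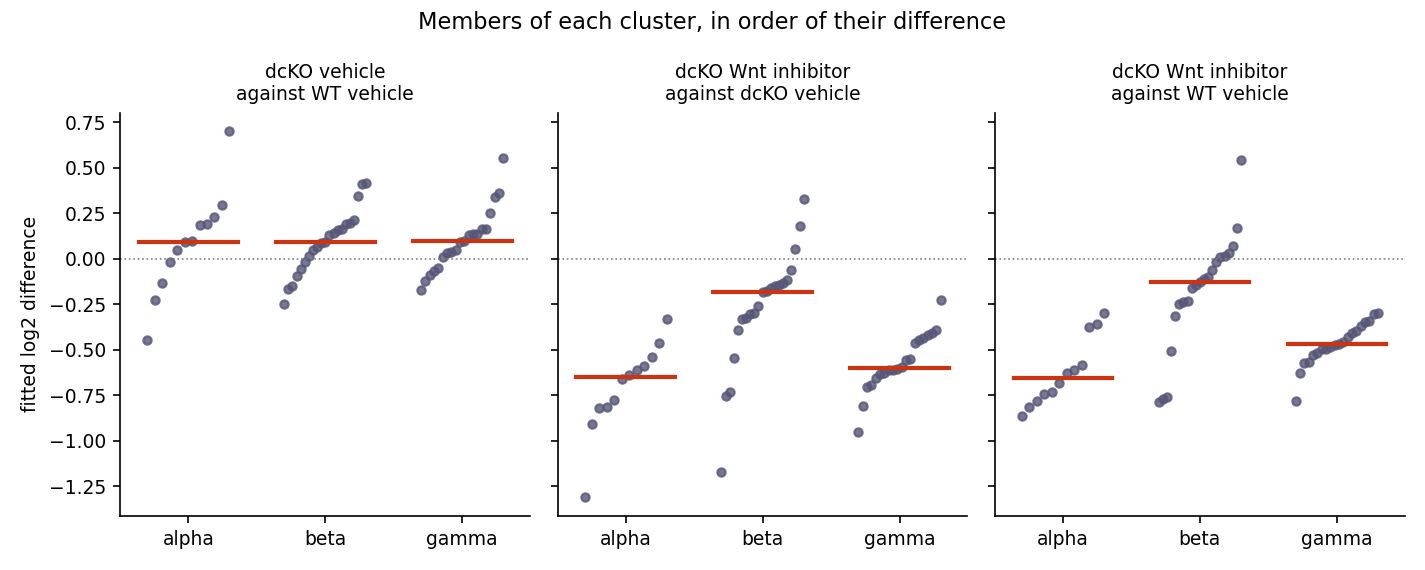
Log2 difference fitted by edgeR for each tested member (points, in ascending order within 12 alpha, 21 beta and 20 gamma genes) with the cluster median (red) in the 3 treated comparisons. Both inhibitor comparisons share inhibitor libraries, and in both every alpha and gamma point lies below 0. Beta points fall on either side in both, most of them below 0.

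Pcdhga1, the first gamma gene, had the smallest p. Its values were 7.77, 8.55, 8.31 and 8.73 CPM in inhibitor replicates 1 to 4, 14.9, 11.5, 14.8 and 13.2 CPM in dcKO vehicle, and 11.7, 13.5, 12.5 and 11.9 CPM in WT vehicle. The inhibitor libraries stood close together and below both vehicle groups. The log2 difference from dcKO vehicle was -0.70 (SE 0.12, edgeR adjusted p = 0.0602). Pcdhga7 read 8.67, 14.5, 11.9 and 14.6 CPM in the inhibitor libraries, and differed from dcKO vehicle by -0.95 (SE 0.16, edgeR adjusted p = 0.0639). Its inhibitor values also lay below all 4 WT vehicle values. Pcdhgb1 read 6.88, 11.02, 9.14 and 8.93 CPM with inhibitor and 14.2, 13.4, 15.9 and 11.6 CPM in dcKO vehicle, a log2 difference of -0.61 (edgeR adjusted p = 0.152).

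Of the C-type members, Pcdhgc4 stood at 21.2, 48.7, 29.5 and 40.1 CPM with inhibitor and at 64.5, 37.9, 59.6 and 51.5 CPM in dcKO vehicle. The low dcKO vehicle value is that of replicate 2, and the groups overlapped (log2 difference -0.61, edgeR adjusted p = 0.257). Pcdhac2 differed by -0.64 (edgeR adjusted p = 0.229), Pcdhac1 by -0.59 (edgeR adjusted p = 0.315), Pcdhgc5 by -0.42 (edgeR adjusted p = 0.305) and Pcdhgc3 by -0.23 (edgeR adjusted p = 0.470). Among the other high members, Pcdha9 differed by -0.82, Pcdha5 by -0.54 and Pcdhgb6 by -0.45, with edgeR adjusted p-values of 0.188, 0.278 and 0.278. The 3 leading beta genes had smaller differences, -0.13 for Pcdhb17, 0.05 for Pcdhb22 and -0.06 for Pcdhb7. Pcdhb7 read 16.1 to 20.3 CPM with inhibitor, 17.4 to 19.2 in dcKO vehicle and 15.6 to 18.4 in WT vehicle.

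**Figure D4:**
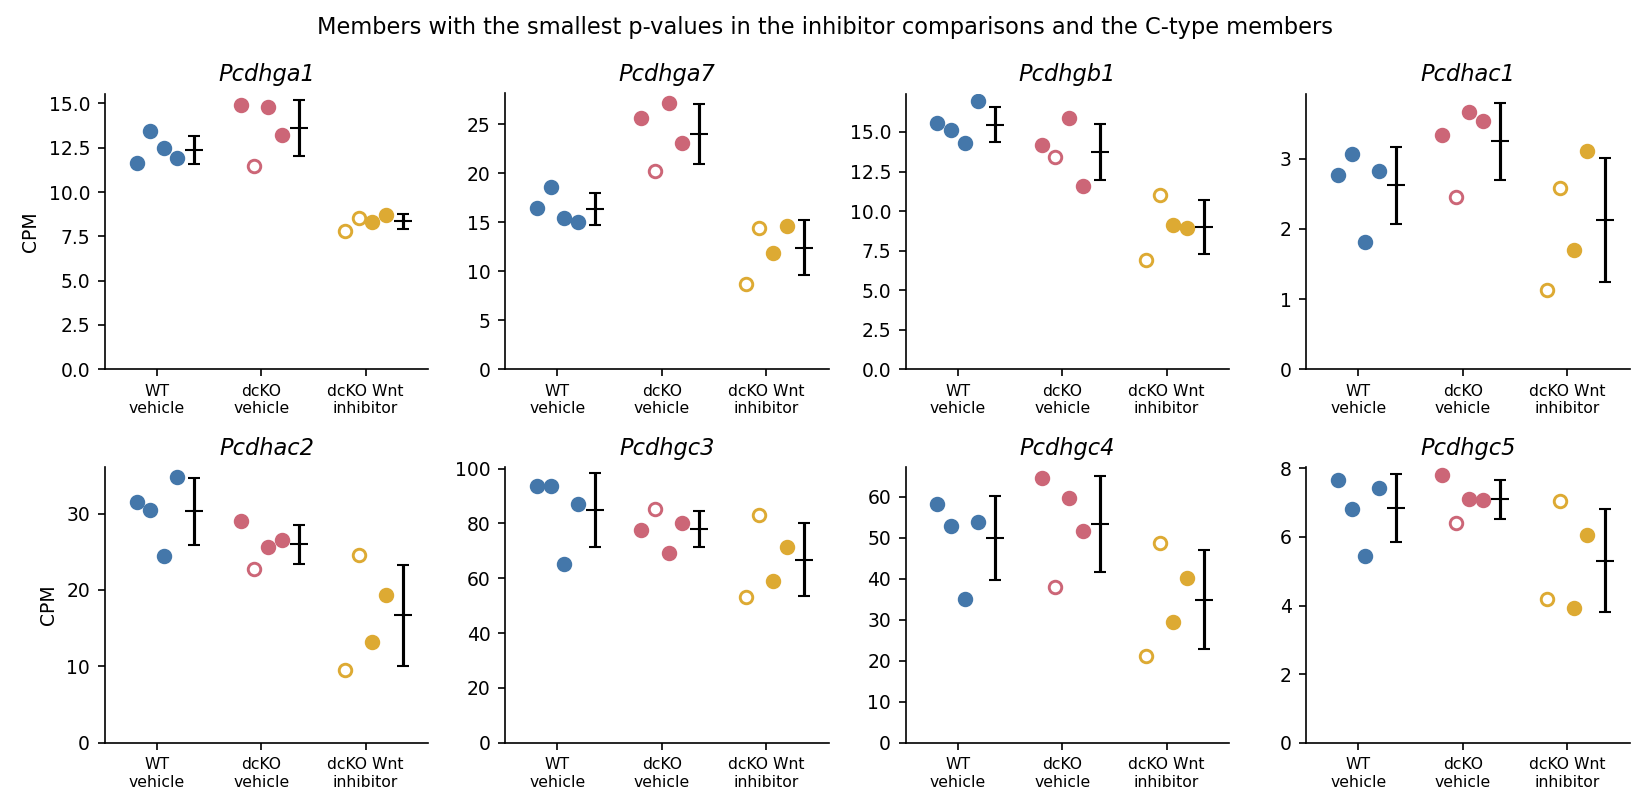
CPM in every treated library (points) with group mean and SD (black) for 3 members with the smallest p in the inhibitor comparisons and the 5 C-type members. Open points are the 3 libraries labelled dcKO with Smarcc1 and Smarcc2 nearer to WT. Pcdhga1 separates the inhibitor libraries (7.77 to 8.73 CPM) from both vehicle groups, while Pcdhgc3 and Pcdhac1 overlap.

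Against WT vehicle, which shares the inhibitor libraries with the comparison above, all 12 alpha and all 20 gamma members were again negative in the inhibitor group. The medians were -0.66 in alpha, -0.13 in beta and -0.47 in gamma, beside 0.01 over all genes. By edgeR 0 of 53 passed an adjusted p of 0.05 (0.0977% of all genes), and by DESeq2 6 passed, all lower (2.49% of all genes were called lower). At an unadjusted p under 0.05, 22 were lower and 0 higher, against 10.2% and 9.53% of all genes, and these were 7 alpha, 2 beta and 13 gamma members. In 8 members, Pcdha6, Pcdhga1, Pcdhga2, Pcdhga5, Pcdhga7, Pcdhgb1, Pcdhgb2 and Pcdhgb6, the groups did not overlap (4.02% of all genes were lower without overlap). The smallest p was that of Pcdhgb1, which read 15.5, 15.1, 14.3 and 16.9 CPM in WT vehicle (log2 difference -0.78, SE 0.15, edgeR adjusted p = 0.0569). Pcdhga1 differed by -0.57 (edgeR adjusted p = 0.0667). Pcdhac2 read 31.5, 30.5, 24.4 and 34.8 CPM in WT vehicle and 9.51, 24.6, 13.2 and 19.3 CPM with inhibitor. Replicate 2 of the inhibitor group just exceeded the lowest WT library, and the log2 difference was -0.86 (SE 0.23, edgeR adjusted p = 0.0959).

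The number of calls changed with the libraries used. Without the 3 libraries labelled dcKO with Smarcc1 and Smarcc2 nearer to WT, 5 members were called lower against dcKO vehicle by edgeR (Pcdha2, Pcdha6, Pcdhga1, Pcdhga7 and Pcdhga8), where 0.72% of all genes were called lower. Against WT vehicle 7 were called lower in the same way (ENSMUSG00000007440, Pcdha6, Pcdha12, Pcdhac2, Pcdhga1, Pcdhgb1 and Pcdhgb5), where 4.72% of all genes were. The alpha and gamma medians then stood at -0.73 and -0.60 against dcKO vehicle and at -0.69 and -0.43 against WT vehicle, while the beta medians were -0.13 and 0.04, so that the beta median against WT turned positive. This leaves 2 inhibitor libraries, replicates 3 and 4. Without inhibitor replicate 2 alone, 11 members were called against dcKO vehicle (1.67% of all genes lower) and 12 against WT vehicle (5.35%), all lower.

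Other properties moved with the inhibitor group. Long genes (at least 6551 exonic bases) were compared with short genes (at most 2541) in each library. On the log2 scale they deviated by -0.49, 0.13, -0.28 and -0.13 in inhibitor replicates 1 to 4. From lowest to highest the replicates ran 1, 3, 4 and 2, which was also the order of their alpha and gamma sums. WT vehicle ranged from -0.11 to 0.25 and dcKO vehicle from 0.01 to 0.13. In WT vehicle the orders differed, as replicate 3 had the highest deviation but the lowest alpha and gamma sums (78.6 and 343 CPM). In dcKO vehicle replicate 2 was lowest in the deviation and in both sums (84.7 and 389 CPM). With a per-library offset on gene length the medians against dcKO vehicle were -0.63 in alpha, -0.21 in beta and -0.59 in gamma. In that setting 29 members had an unadjusted p under 0.05 by edgeR, all lower, where 1140 of all 16328 genes tested were lower at that threshold. The offset used all exonic bases of a gene, whereas alpha and gamma reads were taken to come from unshared bases only. Whether read cover along genes differed between libraries was not tested. Within sequencing lane L001, which holds only inhibitor replicate 1, the alpha, beta and gamma sums differed from dcKO vehicle by -1.39, -0.50 and -1.02 on the log2 scale. Within lane L002, with inhibitor replicates 2 and 3, they differed by -0.52, -0.15 and -0.42. Lane L003 holds 1 inhibitor library and no vehicle library.

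Markers of other cells differed too. The 7 choroid plexus markers summed to 12.4 to 858 CPM with inhibitor, 7.17 to 12.03 in dcKO vehicle and 7.11 to 133 in WT vehicle, and 6 of the 7 had an unadjusted p under 0.05, higher with inhibitor, in both inhibitor comparisons. Of these, Ttr, the transthyretin of choroid plexus, read 803, 147, 448 and 4.03 CPM in inhibitor replicates 1 to 4. In dcKO vehicle Ttr read 3.87 to 5.80 CPM. The alpha sums of inhibitor replicates 1 to 4 were 35.8, 89.2, 52.6 and 71.0 CPM, and the gamma sums 210, 374, 272 and 335 CPM. The homeobox gene Otx2 of the choroid plexus list was the only gene of all lists examined that passed edgeR's test (log2 difference from WT vehicle 1.64, adjusted p = 0.0464). The 11 neuron markers summed to 8184 to 9718 CPM with inhibitor, 8057 to 10081 in dcKO vehicle and 9156 to 11674 in WT vehicle. The 7 GABAergic interneuron markers summed to 761 to 957 CPM with inhibitor, 517 to 906 in dcKO vehicle and 570 to 744 in WT vehicle. The 5 red blood cell markers summed to 254.4 to 311 CPM with inhibitor, above 221 to 249 in dcKO vehicle and 144 to 254.2 in WT vehicle, and the groups did not overlap. The 11 progenitor markers summed to 1872 to 2086 CPM with inhibitor, 1603 to 1915 in dcKO vehicle and 1624 to 1946 in WT vehicle. The part of these cell types in the protocadherin values was not tested.

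Like genes were read beside the family. All 12 non-clustered protocadherins, which are encoded singly elsewhere in the genome, were negative between inhibitor and dcKO vehicle (median -0.45, 5 with an unadjusted p under 0.05, 0 called by edgeR), and 11 of 12 were negative against WT vehicle (median -0.26). Of 14 genes flanking the clusters on chromosome 18, 12 were positive against dcKO vehicle (median 0.12, 0 called). Of 21 regulators of protocadherin promoter choice and chromatin at the locus, such as Ctcf, the cohesin subunits and Smchd1, 17 were negative with a median of -0.16, 1 had an unadjusted p under 0.05 and 0 were called. The 14 signalling partners, among them the kinases Ptk2 and Ptk2b that bind alpha and gamma tails and the WAVE complex subunits, had a median of -0.02 and 0 calls against dcKO vehicle. Without untreated M replicate 2, Pcdh7, Pcdh8, Pcdh10, Pcdh17 and Pcdh18 were called higher in M than in C, and so were the promoter choice regulators Dnmt3a, Ehmt2 and Wiz, where 5.57% of all genes were called higher. The signalling partners Cyfip1, Nckap1 and Ptk2b were called lower in that setting, where 6.88% of all genes were.

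H3K27me3, the mark that Polycomb repressive complex 2 places on repressed chromatin, covered at most 7.48% of any cluster in 7 of 8 libraries. Peaks had been called in each library, and the depth of kept tags ran from 2420911 to 28335352. Peaks covered 2.01%, 1.58%, 0% and 0.0901% of the alpha cluster in C replicates 1 to 4 and 0.543%, 0%, 0% and 11.1% in K. Over the gamma cluster they covered 1.97%, 7.48%, 0.511% and 4.31% in C and 3.13%, 0.154%, 1.72% and 20.8% in K. Beta was covered to at most 0.794%, except for 9.14% in K replicate 4. Relative to the share of the whole genome under peaks, cover of the gamma cluster was 3.12, 6.92, 2.36 and 5.17 times as high in C and 5.65, 0.598, 2.26 and 9.70 times in K, above the genome in 7 of 8 libraries. For alpha the ratios were 3.19, 1.46, 0 and 0.108 in C and 0.981, 0, 0 and 5.19 in K. For beta they were 1.09, 0.73, 0.512 and 0 in C and 0.722, 1.19, 0 and 4.26 in K. K replicate 4 thus stood apart in all 3 clusters, and also had the widest cover of the whole genome (2.14%, against 0.217% to 1.08% in the other libraries).

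**Figure D5:**
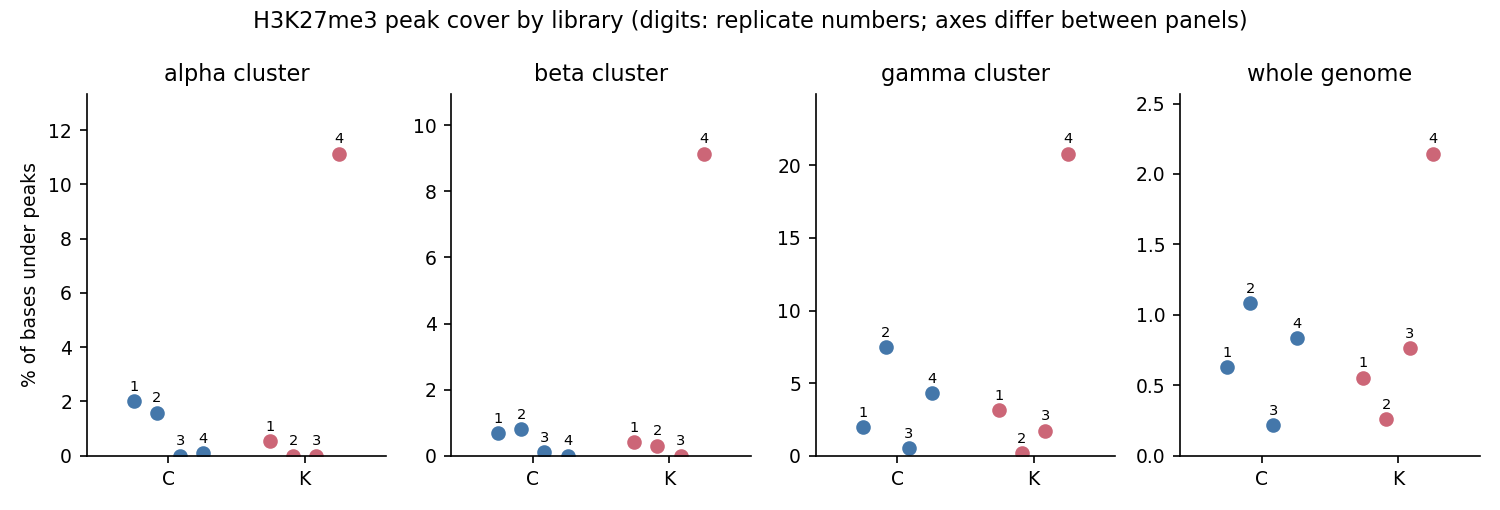
Share of bases under H3K27me3 peaks in each library (points, numbered by replicate) for the 3 clusters and the genome, with a separate linear axis for each panel. K replicate 4 is highest in every panel, with 11.1%, 9.14%, 20.8% and 2.14%, and the other 7 libraries of C and K overlap.

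At the start sites the same library stood out. Within 1000 bases of their start, 6, 13, 0 and 6 of the 58 members had a peak in C replicates 1 to 4, and 5, 1, 4 and 40 in K. The 40 were 14 alpha, 9 beta and 17 gamma members. In K replicate 4 29.8% of all protein-coding genes had such a peak, against 69.0% of the members. In C replicate 2 these shares were 14.6% and 22.4%. In C replicates 1, 3 and 4 and K replicates 1 to 3, the members' share lay below that of coding genes in each library. There the shares ran from 0% to 10.3% of the members and from 3.27% to 17.03% of coding genes. Pcdhgb7 and Pcdhga10 had a peak at the start in the most libraries, 5 of 8 each, Pcdhgb7 in 3 C and 2 K libraries and Pcdhga10 in 2 C and 3 K libraries. The highest fold enrichment over input at a start, 6.50, was that of Pcdhgb7. Pcdhgc3 and Pcdhgc4, the most abundant members, and Pcdhgc5 had no peak at their start or over their unshared exons in any library. Pcdhga10 had peaks in both groups and 0 reads over 2613 unshared bases, but Pcdhga1 had a start peak in 4 libraries and 2829 reads. The annotation and the handling of reads over several genes are not given, so the 0 reads of Pcdhga10 are not read as absence of its RNA.

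Regions of merged peaks were compared between K and C by limma on log2 fold enrichment. Of 22146 regions found in 2 or more libraries, 44 lay over the locus, and 0 of these passed an adjusted p of 0.05 (0% of all regions). None had an unadjusted p under 0.05, against 0.221% of all regions. The smallest p-values were those of the region at 37668048 to 37669392 near the start of Pcdhga2 (log2 difference 1.11, limma adjusted p = 1), of 37763075 to 37764739 over Pcdhgb8 (1.01) and of 37519070 to 37520836 over Pcdhb22 (0.97). In all 3, peaks were found in 2 K libraries and 0 C libraries, and K replicate 4 was always 1 of the 2. The median log2 difference of the 44 was 0.10, beside 0.05 over all regions. Without K replicate 4 only 19 regions remained over the locus, with a median of -0.18 beside 0.10 over all. The median over the locus was also negative without C replicate 2 (-0.01), C replicate 3 (-0.06) or C replicate 4 (-0.04), so its direction changed with the libraries used. Among regions found in 3 or more libraries the median of 17 over the locus was -0.01.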

How the data were processed

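Whole-gene read counts of 19 RNA libraries and H3K27me3 peak lists of 8 libraries were analysed. The members and gene lists were chosen with earlier results of these data known. The counts were deposited by the authors without normalization, after alignment with STAR to mm10, a mapping quality filter and featureCounts; the annotation release, strand setting and handling of reads over several genes are not given in the sources used here, and the TruSeq v2 kit does not mark strand. The peak files hold pileup signal, fold enrichment (a ratio over pooled input of the same letter), and −log10 p-values and q-values that the authors obtained with MACS2 (2.1.0.20140616 in the file headers, named with mm10 in the submitters' processing notes), broad, at a q-value limit of 0.1, in each library. 5 summary rows of the untreated files, which name no gene and held 0 reads, were left out.

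Symbols came from GENCODE M21 (GRCm38), with 36602 of 38355 and 48349 of 48709 identifiers matched. Counts were filtered with filterByExpr, scaled by TMM and tested with edgeR 4.0.16 (quasi-likelihood, robust) with Benjamini-Hochberg adjustment over all genes, the 3 treated groups in one fit. The SE beside an edgeR log2 difference is derived, as its absolute value divided by the square root of the F statistic. DESeq2 1.42.0 was an alternative, as were other size factors, no filter, a replicate block, lane, leaving out libraries and, chosen after seeing the data, a length offset and leaving out the 3 libraries named in the text. CPM per kb divides by exonic bases shared with no other gene on the same strand. Merged peaks (overlap of at least 1 base, a peak in at least 2 libraries, fold enrichment 1 where none) were tested with limma 3.58.1. On simulated data with 200 genes changed 2-fold, edgeR recovered 78% in the untreated comparison (15770 genes) and 66% in dcKO vehicle against WT vehicle (16372 genes), with 5.45% and 3.65% of calls false. DESeq2 recovered 80.5% and 72%, with 18.27% and 18.18% of calls false. Counts were drawn independently for each gene, and every library of the changed group carried the full change. The real M and dcKO vehicle groups each held a library with Smarcc1 and Smarcc2 near the C or WT level, so these shares need not hold there.

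Deviations of same-numbered samples correlated at r from -0.31 to 0.40 within experiments. WT vehicle replicate 1 went with dcKO vehicle and inhibitor replicates 1 (0.38 and 0.40), but not every pair was above 0.1, so numbers were not used as pairs. Named were Smarcc1 and Smarcc2, the C-type members, the 3 highest members of each cluster, those past the threshold or otherwise the 3 with the smallest p in each comparison, untested members, and the 3 regions with the smallest p. Pcdha6, Pcdha8 and other members named by group separation, lowest level or calls under an alternative, and Pcdhgb7 and Pcdhga10, were chosen after their values were seen. Input libraries were not analysed here. The precision of counts is limited by the totals given in the text.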

Additional observations from a re-analysis of the deposited data

Results flagged for a closer look

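In 7 of 94 groups of 4 libraries examined, 1 library lay far from the other 3, and chance flags about 1 in 20 groups. Smarcc1 at 242 CPM and Smarcc2 at 692 CPM in the library labelled dcKO vehicle replicate 2 lay above 133 to 138 and 425 to 439 CPM in the other dcKO vehicle libraries. The summed gamma cluster of WT vehicle replicate 3, the treated library with the fewest counts, was 343 CPM, against 423 to 432 CPM in the other WT vehicle libraries. H3K27me3 K replicate 4 had peaks over 11.1% of the alpha, 9.14% of the beta and 20.8% of the gamma cluster and 10.7% of the whole locus, where the other K libraries reached at most 0.543%, 0.400%, 3.13% and 1.10%.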

How the results depend on the processing

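The count of members called changed with the test and the libraries. Against dcKO vehicle, 0 members by edgeR became 11 by DESeq2, 1 without a filter on low counts (0.016% of all genes lower) and 5 without the 3 libraries nearer to WT in Smarcc1 and Smarcc2, and leaving out 1 library at a time gave 0 to 11. The highest was without inhibitor replicate 2, and without dcKO vehicle replicate 2 it was 3 (0.454%). Against WT vehicle, 0 became 6 by DESeq2, 1 without the filter (0.102%) and 7 without the 3 libraries, and leaving out 1 library at a time gave 0 to 12, with 2 without WT vehicle replicate 1 (0.517%). Untreated M against C gave 0 to 1 with 1 library left out. With the replicate number as a block, 2 members were called against WT vehicle (Pcdhgb1 and ENSMUSG00000007440; 0.763% of all genes lower) and 0 in every other comparison, regions included; the numbers do not pair the samples. Within lane L001 the alpha, beta and gamma sums moved to -1.39, -0.50 and -1.02 against dcKO vehicle and to -1.53, -0.49 and -1.04 against WT vehicle on the log2 scale. The alpha medians moved to -0.93 and -0.95 without inhibitor replicate 2. The cause of these changes was not tested. Directions changed in the beta median against WT vehicle without the 3 libraries (0.04), in the H3K27me3 medians given in the text and in the cluster sums of dcKO vehicle against WT vehicle, which lay near 0 (alpha -0.01, and 0.13 within lane L002; beta 0.02, and -0.07 without WT vehicle replicate 1; gamma 0.08, and -0.02 within lane L001). The counts for dcKO vehicle against WT vehicle, for the interaction and for H3K27me3 regions stayed at 0 under each alternative run. The 5 members with 0 to 28 treated reads could not be tested, and the kept tags behind the peak calls were of very unequal number.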
